A study of Mus musculus with 163 samples.

Results

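*Gal*, *Trh*, *Pdyn*, *Adcyap1* and *Bdnf* encode secreted signals that POMC neurons can make beside the melanocortin precursor, and they are described here across single neurons. The 5 genes were taken by name from the 12187 genes of the expression matrix, and all 5 were measured. Each library is 1 MBH Pos cell, that is, a neuron from the medial basal hypothalamus of an ad libitum fed male *Pomc*-eGFP mouse (C57/BL6 Tg(Pomc-EGFP)1Low, 7 to 9 weeks old) that was sorted by its GFP fluorescence. GFP in these mice is driven by *Pomc* regulatory sequences, so a sorted cell is one in which the transgene was on, and its own *Pomc* can be high or low. The cells carry no treatment and the labels divide them into no groups.

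The cells were therefore divided by 2 genes of their own. The 48 cells with *Agrp* at 10 log2RPM or more are called Agrp-high, where RPM stands for reads per 1 M reads and log2RPM for its log2. The other cells, called Agrp-low, were split by *Pomc* into 34 Pomc-high cells (12 log2RPM or more), 53 Pomc-intermediate cells (6 to under 12) and 28 Pomc-low cells (below 6). Few cells lay near these limits for *Agrp*, with 8 within 1 of the limit, but 20 Agrp-low cells were within 1 of the lower *Pomc* limit and 13 within 1 of the upper. The cells just below and just above the *Agrp* limit were at 9.99 and 10.12 log2RPM. A gene was called detected where its level reached 5 RPM, which is 36.2 reads at the median depth and 6.53 reads in the shallowest cell. Behind each share of cells stands its 95% interval (Clopper-Pearson), which accounts for counting error alone. Since no label ties a cell to an animal or plate, all cells together are 1 sample, no p-value was computed and every SD is a spread over cells. The words higher and lower are used of a group where its mean log2RPM differs from that of the cells it is set against by 1 or more.

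Galanin, thyrotropin-releasing hormone (TRH), the dynorphins and pituitary adenylate cyclase-activating polypeptide (PACAP, from *Adcyap1*) are cut from larger precursors by convertases at pairs of basic residues, stored in dense-core vesicles and released on strong activity. Galanin and the dynorphins act mostly on inhibitory G protein-coupled receptors, while TRH and PACAP act mostly on excitatory ones. Brain-derived neurotrophic factor (BDNF) travels the same regulated route but is a growth factor that binds the receptor tyrosine kinase TrkB. In the hypothalamus galanin and dynorphin are found in several arcuate cell types, TRH is known above all from the paraventricular nucleus, and PACAP and BDNF from glutamatergic neurons of the ventromedial nucleus.

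All 8 pan-neuronal markers were found, of which *Snap25*, *Stmn2*, *Map2* and *Ncam1* were detected in all cells and *Rbfox3*, the least frequent, in 74.2%. *Pomc* ranged from 1.01 to 16.06 log2RPM and was detected in all cells but 1. Cells had between 1.46 and 41.9 M reads over the genes of the matrix (median 8.10 M), and the group medians were between 7.84 and 8.45 M. Of markers of other cell types, 3 cells held 3 or more of 1 type at 6 log2RPM or more. This count could flag oligodendrocytes, tanycytes and ependymal cells, and pituitary cells alone. Astrocytes had 1 marker measured, oligodendrocyte precursors 2, and microglia and endothelial cells 0. The summed oligodendrocyte markers had medians of 6.27 log2RPM in Agrp-high and 5.62 in Agrp-low cells. The sums of the other measured types had medians of at most 2.70. At least 1 of 3 pituitary genes was detected in 40 Agrp-low and 4 Agrp-high cells, and at least 1 of 4 oligodendrocyte genes, mostly *Mbp*, in 97 and 44 cells. Their part in the values below was not tested. The cells also differed by their number in the labels: Agrp-high cells made up 32 of cells 1 to 66, 5 of cells 67 to 98 and 11 of those from 99 on. The lowest *Agrp* level was 3.12 log2RPM in cells 1 to 66 and -0.91 in each later range. What the cell numbers stand for is not stated, so the results are also given within these 3 ranges, whose limits were chosen with earlier values known.

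**Figure D1:**
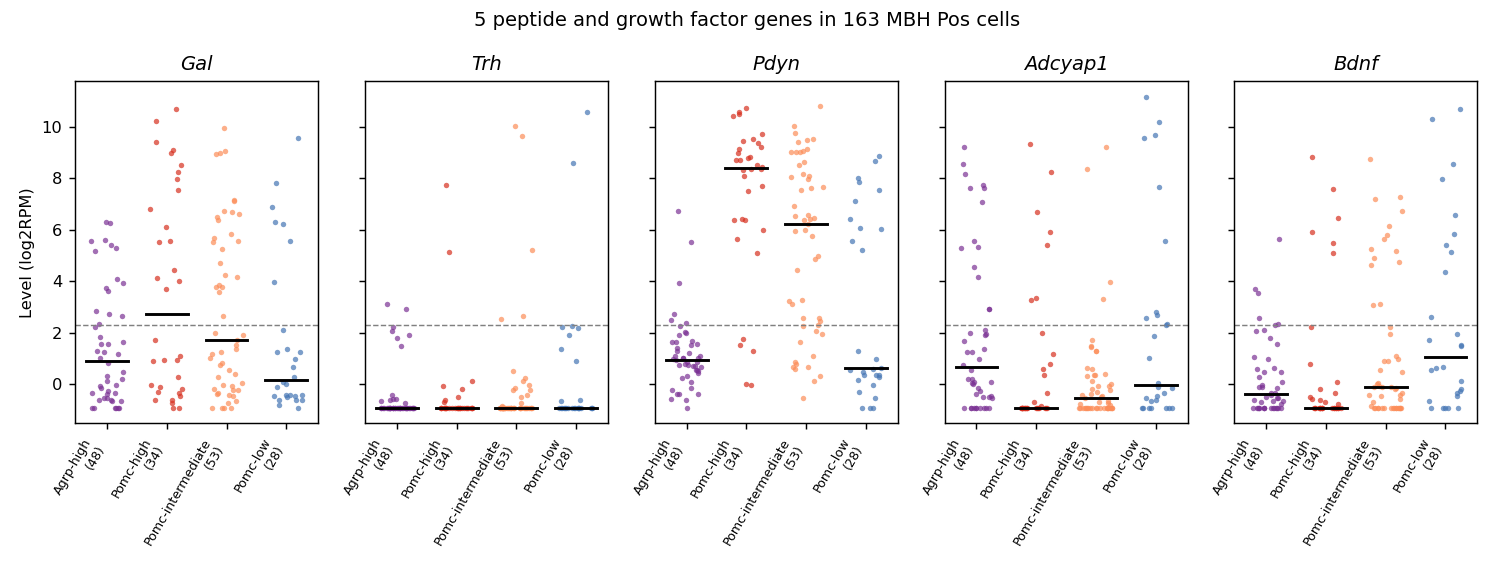
Level of each gene (vertical axis, log2RPM) in every cell, 1 point per cell, with the 4 groups of cells and their numbers on the horizontal axis. Black bars are medians and the dashed line is the detection limit of 5 RPM. *Pdyn* is the only gene whose median lies above the limit in more than 1 group (8.42 and 6.24 log2RPM in Pomc-high and Pomc-intermediate cells), and *Trh* sits at the lowest value in most cells.

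Of the 5 genes, *Pdyn* was detected in the most cells (85 cells, 52.1%, 95% interval 44.2% to 60.02%), then *Gal* (63 cells, 38.7%, 31.1% to 46.6%), *Adcyap1* and *Bdnf* (35 cells each, 21.5%, 15.4% to 28.6%) and *Trh* (11 cells, 6.75%, 3.42% to 11.8%). The intervals of *Pdyn* and *Gal* overlap, whereas *Adcyap1* and *Bdnf* lie below both and *Trh* lies below all of them. These genes differ in length, from 788 exonic bases in *Gal* to 6217 in *Bdnf*, counting each base that is in an exon of any annotated transcript. On that count 5 RPM stands for 5.67 RPM per kb above the lowest value in *Gal* and 0.719 in *Bdnf*. *Gal* has 2 annotated transcripts, *Trh* 1, *Pdyn* 3, *Adcyap1* 5 and *Bdnf* 11. A single transcript can be shorter than this count, so levels per kb can be understated where there are many. Per kb of exon, the median level in cells with the gene was 71.01 RPM for *Pdyn* (quartiles 21.7 and 176.2), 61.8 for *Gal* (21.3 and 177.5), 26.1 for *Trh* (5.51 and 423.5), 15.7 for *Adcyap1* (3.33 and 83.7) and 7.90 for *Bdnf* (4.11 and 20.47). Neighbours in this order of level overlap in their quartiles, and *Trh*, the rarest of the 5, had the highest upper quartile.

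Between Agrp-high and Agrp-low cells, 3 of the 5 genes were lower in the Agrp-high cells (*Pdyn*, *Gal* and *Bdnf*) and 1 was higher (*Adcyap1*). Over all 12187 genes, 2.94% were lower by at least 1 in Agrp-high cells and 8.65% higher, with a median difference of 0.19. *Trh* differed by -0.36.

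*Pdyn* (ENSMUSG00000027400, chr2:129686565-129699844 of GRCm38, minus strand) encodes prodynorphin, the precursor of the dynorphins, which bind the kappa opioid receptor. Its 248-residue precursor has 8 pairs of basic residues, and each of its 3 copies of the opioid message Tyr-Gly-Gly-Phe follows such a pair. These stretches are shown because they are the part of the transcript that becomes opioid peptide. The capitals are the 4 codons of the message, the 6 bases before them are the basic pair, and all lie in coding sequence on the minus strand.
Pdyn unit 1 (chr2:129688235-129688258): aaacgcTATGGCGGCTTTttgcgc
Pdyn unit 2 (chr2:129688127-129688150): aaacgcTATGGGGGCTTCctgcgg
Pdyn unit 3 (chr2:129688070-129688093): aagcgcTATGGTGGTTTCctgcgg

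*Pdyn* differed more between Agrp-high and Agrp-low cells than any of the other 4 genes. It was detected in 6 of 48 Agrp-high cells (12.5%, 4.73% to 25.2%) and in 79 Agrp-low cells (68.7%, 59.4% to 77.02%). In Agrp-high cells it ran from -0.91 to 6.72 log2RPM with a median of 0.96, and in Agrp-low cells from -0.91 to 10.80 with a median of 6.39. The ranges overlap at the bottom, but 70 Agrp-low cells and 2 Agrp-high cells reached 5 log2RPM. The means were 1.17 ± 1.42 and 5.34 ± 3.66 log2RPM (SD over cells), a difference of -4.17. The direction was the same within each range of cell numbers, at -2.57, -6.82 and -4.07. At 1 RPM, *Pdyn* was found in 83.3% of Agrp-high and 93.04% of Agrp-low cells, shares nearer to each other than those at 5 RPM.

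Among Agrp-low cells *Pdyn* followed *Pomc*. It was detected in 29 of 34 Pomc-high cells (85.3%, 68.9% to 95.05%), 39 of 53 Pomc-intermediate cells (73.6%, 59.7% to 84.7%) and 11 of 28 Pomc-low cells (39.3%, 21.5% to 59.4%). Pomc-high cells ran from -0.01 to 10.74 log2RPM (median 8.42), Pomc-intermediate cells from -0.55 to 10.80 (median 6.24) and Pomc-low cells from -0.91 to 8.85 (median 0.62). The Pomc-low cells divided into cells without *Pdyn* and 11 cells at 5.21 log2RPM or more, with none between the detection limit and that value. Among cells with *Pdyn*, the median level was 8.71 in Pomc-high, 7.54 in Pomc-intermediate and 7.11 log2RPM in Pomc-low cells. The share in Pomc-high cells was above that in Pomc-low cells by 46.01 percentage points (95% Newcombe interval 22.1 to 63.8).

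This relation was not equally strong in all ranges of cell number. Over the Agrp-low cells, *Pdyn* and *Pomc* had a Pearson correlation of 0.49, given as a description since the cells share 1 source. It was 0.82 in cells 1 to 66, 0.51 in cells 67 to 98 and 0.11 in cells from 99 on. In cells 1 to 66, *Pdyn* was detected in all 8 Pomc-high and 2 of 14 Pomc-low cells. From cell 99 on it was detected in 13 of 17 Pomc-high and 6 of 9 Pomc-low cells, and the difference in shares was 9.80 percentage points. The difference between the ranges was not tested.

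**Figure D2:**
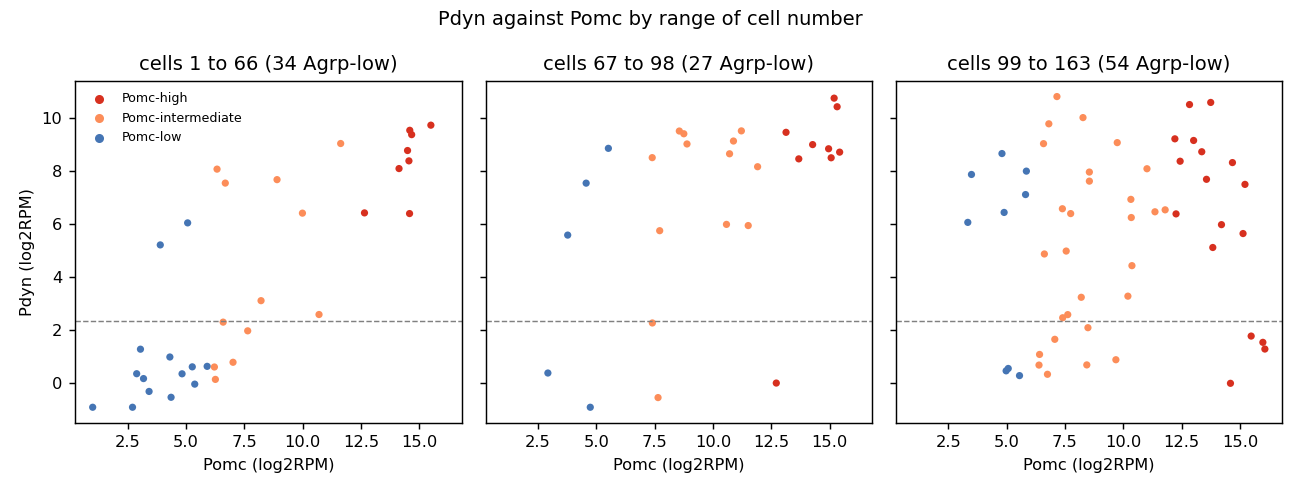
The level of *Pdyn* on the vertical axis is set against that of *Pomc* on the horizontal, both in log2RPM, with 1 point for each Agrp-low cell, in 3 panels by cell number and coloured by *Pomc* group. The dashed line is 5 RPM. Cells with more *Pomc* have more *Pdyn* in the first panel (correlation 0.82), and little such relation is seen in the last (0.11).

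The genes most like *Pdyn* over Agrp-low cells were *Gnai1*, an inhibitory G protein subunit (correlation 0.52), *Tbx3*, a transcription factor of POMC neuron identity (0.50), *Tmem35* (0.497) and *Gfra1*, the co-receptor of GDNF (0.49), among 11600 genes compared. *Tbx3* was detected in 75 of 79 cells with *Pdyn* and 16 of 36 without it, and *Gfra1* in 66 and 16. Other peptide genes did not all go with *Pdyn*. The granin *Vgf*, which is stored in dense-core vesicles, was detected in 61 of 79 cells with *Pdyn* and 12 of 36 without it. Its means were 4.86 and 2.35 log2RPM, and it was higher in cells with *Pdyn* in each range of cell numbers. By contrast *Penk*, the enkephalin precursor, was found in 26 of 79 cells with *Pdyn* and 19 of 36 without it. Its means were 1.31 and 4.02 log2RPM, a difference of -2.71 that was -3.10, -0.60 and -1.57 in the 3 ranges. *Tac2*, the neurokinin B precursor that arcuate kisspeptin neurons express beside dynorphin, was detected in 28 of 79 cells with *Pdyn* and 5 of 36 without it. *Tac2* itself came almost wholly from 1 range: it was detected in 30 of 54 Agrp-low cells from number 99 on, 3 of 27 in the middle range and 0 of 34 in the first, which allows a share of up to 8.82%. In that last range *Tac2* was found in 26 of 40 cells with *Pdyn* and 4 of 14 without it. Of 7 listed markers of arcuate kisspeptin neurons 5 were measured, and *Kiss1* and *Tacr3* are not in the matrix. Of the 5, *Nr5a2* was higher in Agrp-high cells (1.30 against 0.30 log2RPM). The other 4, which include *Pdyn* and *Tac2*, were lower there, beside 8.65% of all genes higher and 2.94% lower.

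*Gal* (ENSMUSG00000024907, chr19:3409919-3414472, minus strand) encodes a precursor with 4 basic pairs, from which galanin is cut. Detection was in 15 of 48 Agrp-high cells (31.3%, 18.7% to 46.3%) and 48 Agrp-low cells (41.7%, 32.6% to 51.3%). The shares differed by -10.5 percentage points, and the 95% interval of -25.02 to 6.01 includes 0. The levels reached were further apart. In Agrp-high cells *Gal* ran from -0.91 to 6.31 log2RPM with a median of 0.91, and in Agrp-low cells to 10.69 with a median of 1.26. Of the Agrp-low cells, 12 reached 8 log2RPM, a level above that of every Agrp-high cell. The means were 1.47 ± 2.26 and 2.78 ± 3.46 log2RPM, a difference of -1.32.

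*Gal* was found in 17 of 34 Pomc-high cells (50.0%, 32.4% to 67.6%), 24 of 53 Pomc-intermediate cells (45.3%, 31.6% to 59.6%) and 7 of 28 Pomc-low cells (25%, 10.7% to 44.9%). Pomc-high cells ran from -0.91 to 10.69 log2RPM (median 2.73), Pomc-intermediate cells to 9.95 (median 1.71) and Pomc-low cells to 9.58 (median 0.17). Among cells with *Gal* the median was 7.55 log2RPM in Pomc-high, 5.76 in Pomc-intermediate and 6.32 in Pomc-low cells, and 7, 4 and 1 cells of these groups reached 8 log2RPM. The difference in shares of Pomc-high and Pomc-low cells was 25 percentage points (0.695 to 45.1). It was 53.6 and 46.7 points in cells 1 to 66 and 67 to 98, but -3.92 points in cells from 99 on, where 5 of 17 Pomc-high and 3 of 9 Pomc-low cells had *Gal*.

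The gene most like *Gal* was *Esr1*, the oestrogen receptor alpha (correlation 0.42), followed by the endopeptidase *Ecel1* (0.40), the RGS protein *Rgs7* (0.37) and *Syndig1l* (0.35). *Esr1* was detected in 42 of 48 Agrp-low cells with *Gal* and 30 of 67 without it, at means of 5.49 and 3.17 log2RPM. The difference of 2.32 was 1.72, 2.01 and 3.01 in the 3 ranges of cell number. Agrp-high cells had *Esr1* in 1 of 48 cells, while 15 of them had *Gal*. Cells with and without *Gal* had median depths of 8.09 and 8.09 M reads among Agrp-low cells.

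*Trh* (ENSMUSG00000005892, chr6:92242061-92244650, minus strand) encodes a precursor of 256 residues with 12 basic pairs. It holds 5 copies of Gln-His-Pro-Gly, the progenitor of the tripeptide TRH, and each has a basic pair on both sides. The 5 units are shown since 1 transcript of this gene carries 5 copies of its product. The capitals are the codons of Gln-His-Pro-Gly, and the lower-case bases on each side are the basic pairs.
Trh unit 1 (chr6:92243088-92243111): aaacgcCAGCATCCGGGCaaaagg
Trh unit 2 (chr6:92242992-92243015): aaacgaCAGCACCCTGGCcgacgt
Trh unit 3 (chr6:92242857-92242880): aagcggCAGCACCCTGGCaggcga
Trh unit 4 (chr6:92242803-92242826): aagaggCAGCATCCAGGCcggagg
Trh unit 5 (chr6:92242710-92242733): aaacgtCAGCATCCTGGCaaaagg

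*Trh* was at the lowest value of the matrix in most cells of every group. Cells with *Trh* were 2 of 48 Agrp-high cells (4.17%, 0.509% to 14.3%) and 9 Agrp-low cells (7.83%, 3.64% to 14.3%). Both Agrp-high cells were close to the limit, at 2.94 and 3.11 log2RPM. The 2 Pomc-high cells stood at 5.14 and 7.74 log2RPM, and the 2 Pomc-low cells at 8.57 and 10.56. The 5 Pomc-intermediate cells stood at 2.52, 2.65, 5.20, 9.63 and 10.03 log2RPM. The 11 values thus ranged from just above the limit to over 10 log2RPM, and 4 of them lay at 8 or more. The shares of Pomc-high and Pomc-low cells differed by -1.26 percentage points, with an interval of -17.3 to 12.9, and a difference of this size was not detectable with these numbers of cells. Agrp-low cells with *Trh* had a median depth of 5.56 M reads and those without it 8.09 M.

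Of the 9 Agrp-low cells with *Trh*, 8 also had *Pdyn* (88.9%), against 66.98% of the Agrp-low cells without *Trh*. All 9 had *Gad1* and *Gad2*, which encode the GABA-synthesizing enzymes, against 86.8% and 83.96% of those without it. *Otp*, a transcription factor listed as a marker of both hypothalamic TRH neurons and AgRP neurons, was detected in 27 of the 48 Agrp-high cells but in 2 Agrp-low cells. Of the 5 listed markers of TRH neurons, 2 were measured, *Trh* and *Otp*. The 4 genes most like *Trh* were *Ankrd35* (0.42), *Zfp367* (0.34), *Sh2b2* (0.32) and *Spry2* (0.32). None of the 4 was among the 4 most alike by rank correlation.

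*Adcyap1* (ENSMUSG00000024256, chr17:93199422-93205485, plus strand) encodes a 175-residue precursor with 8 basic pairs, from which PACAP is cut. It was the 1 gene of the 5 with a higher mean in Agrp-high cells. It was detected in 14 of 48 Agrp-high cells (29.2%, 16.95% to 44.1%) and 21 Agrp-low cells (18.3%, 11.7% to 26.5%), a difference of 10.9 percentage points (-2.66 to 26.1). Agrp-high cells ran from -0.91 to 9.21 log2RPM (median 0.66) and Agrp-low cells to 11.17 (median -0.51), so the ranges overlap throughout. The means were 1.90 ± 3.11 and 0.85 ± 2.95 log2RPM, a difference of 1.06. This difference was not stable over the cells compared or the scale. It was -0.38 within cells 1 to 66, 3.55 within cells 67 to 98, where there were 5 Agrp-high cells, and 0.0067 from cell 99 on. It was 0.96 without the 3 cells with markers of another cell type, and 0.48 with a pseudocount of 5 RPM.

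By *Pomc*, *Adcyap1* was found in 7 of 34 Pomc-high cells (20.6%, 8.70% to 37.9%), 4 of 53 Pomc-intermediate cells (7.55%, 2.09% to 18.2%) and 10 of 28 Pomc-low cells (35.7%, 18.6% to 55.9%). Pomc-high cells reached 9.31 log2RPM (median -0.91), Pomc-intermediate cells 9.20 (median -0.52) and Pomc-low cells 11.17 (median -0.03). All 3 groups had single cells at high levels above a mass of cells near the lowest value. Of the 10 Pomc-low cells with *Adcyap1*, 8 were among the 14 Pomc-low cells numbered 1 to 66. Over all Agrp-low cells the gene was detected in 13 of 34 cells in that range, 3 of 27 in the next and 5 of 54 in the last. The difference in shares of Pomc-high and Pomc-low cells was -15.1 percentage points overall (-36.2 to 6.97) and 23.5 points in cells from 99 on.

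*Bdnf* (ENSMUSG00000048482, chr2:109674700-109727007, plus strand) encodes a precursor of 257 residues with 8 basic pairs from one of several promoters. An annotated antisense gene overlaps its 5′ end, and the library kit does not mark strand, so their reads cannot be told apart there. *Bdnf* was detected in 5 of 48 Agrp-high cells (10.4%, 3.47% to 22.7%) and 30 Agrp-low cells (26.1%, 18.3% to 35.1%), a difference of -15.7 percentage points (-26.2 to -1.91). Agrp-high cells ran from -0.91 to 5.64 log2RPM (median -0.37) and Agrp-low cells to 10.68 (median -0.20). Of the Agrp-low cells, 23 reached 5 log2RPM, against 1 Agrp-high cell. The means were 0.25 ± 1.502 and 1.40 ± 3.11 log2RPM, a difference of -1.14. All 5 Agrp-high cells with *Bdnf* were among cells 1 to 66. With the *Agrp* limit at 11 log2RPM the difference was -0.91, and with a pseudocount of 5 RPM it was -0.81.

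*Bdnf* was found in 6 of 34 Pomc-high cells (17.6%, 6.76% to 34.5%), 14 of 53 Pomc-intermediate cells (26.4%, 15.3% to 40.3%) and 10 of 28 Pomc-low cells (35.7%, 18.6% to 55.9%). The intervals overlap, and the shares of Pomc-high and Pomc-low cells differed by -18.1 percentage points (-38.7 to 3.77). This gap was -25 points in cells 1 to 66, -20.0 in cells 67 to 98 and 1.31 in cells from 99 on, where 4 of 17 Pomc-high, 7 of 28 Pomc-intermediate and 2 of 9 Pomc-low cells had *Bdnf*. It was -5.87 points with 3 equal groups by *Pomc* rank and -37.8 at 1 RPM. Pomc-high cells reached 8.84 log2RPM (median -0.91), Pomc-intermediate cells 8.75 (median -0.11) and Pomc-low cells 10.68 (median 1.07).

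Set against the other Agrp-low cells by means, Pomc-high cells had 2 of the 5 genes higher, *Pdyn* by 2.79 and *Gal* by 1.13, where 4.50% of all genes were higher. They had *Bdnf* lower, at -1.04, where 5.10% of all genes were lower. Pomc-intermediate cells had none of the 5 higher (1.61% of all genes) and *Adcyap1* lower, at -1.25 (1.93%). Pomc-low cells had *Adcyap1* and *Bdnf* higher, by 1.73 and 1.44 (5.39%), and *Pdyn* and *Gal* lower, at -3.30 and -1.41 (3.50%). These comparisons share cells and are not independent of each other. They also differed by cell number, and 14 of the 28 Pomc-low cells are among cells 1 to 66. In cells from 99 on, the means in Pomc-high, Pomc-intermediate and Pomc-low cells were 0.65, 0.013 and -0.72 log2RPM for *Adcyap1* and 1.11, 1.23 and 0.94 for *Bdnf*. For *Gal* they were 1.82, 2.53 and 2.73 and for *Pdyn* 6.34, 5.17 and 5.05. In that range *Adcyap1* and *Bdnf* were thus not higher in Pomc-low cells, and *Gal* was not lower there. The *Pdyn* mean of Pomc-low cells was within 1 of that of Pomc-intermediate cells. The Pomc-high mean was above both by more than 1, so *Pdyn* was still higher in Pomc-high cells.

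Among pairs of the genes in Agrp-low cells, *Adcyap1* and *Bdnf* showed the widest gap between cells with and without the partner. Of 21 Agrp-low cells with *Adcyap1*, 11 had *Bdnf* (52.4% of the cells with *Adcyap1* and 36.7% of the 30 with *Bdnf*), against 19 of the 94 cells without *Adcyap1* (20.2%). Their correlation was 0.42 over the Agrp-low cells. Most of this came from cells 1 to 66, where 9 cells had both, of 13 with *Adcyap1* and 13 with *Bdnf*, and the correlation was 0.70. It was -0.07 in cells 67 to 98, where 3 cells had *Adcyap1*, 4 had *Bdnf* and no cell had both, and 0.18 in cells from 99 on. In Agrp-high cells 2 of 14 cells with *Adcyap1* had *Bdnf*.

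Both genes were found mostly in cells with *Slc17a6*, the vesicular glutamate transporter, when Agrp-low cells alone were counted. Of the 48 Agrp-high cells, 13 had *Slc17a6* and 14 had *Adcyap1*. *Slc17a6* was detected in 27 of 30 Agrp-low cells with *Bdnf* and 46 of 85 without it, at means of 7.12 and 3.87 log2RPM. The difference of 3.24 was 3.07, 2.72 and 3.53 in the 3 ranges of cell number. It was also detected in 17 of 21 cells with *Adcyap1* and 56 of 94 without it, a difference in means of 1.74 that was 1.704, -1.89 and 2.95 in the 3 ranges. *Slc32a1*, the vesicular GABA transporter, was detected in 2 of 30 cells with *Bdnf* and 25 of 85 without it. *Slc32a1* was scarce among Agrp-low cells while *Gad1* was common. Split by *Gal*, *Slc32a1* was detected in 12 of 48 cells with it and 15 of 67 without it, and *Gad1* in 46 and 55. Whether cells with *Bdnf* make GABA thus cannot be read from *Slc32a1* alone.

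**Figure D3:**
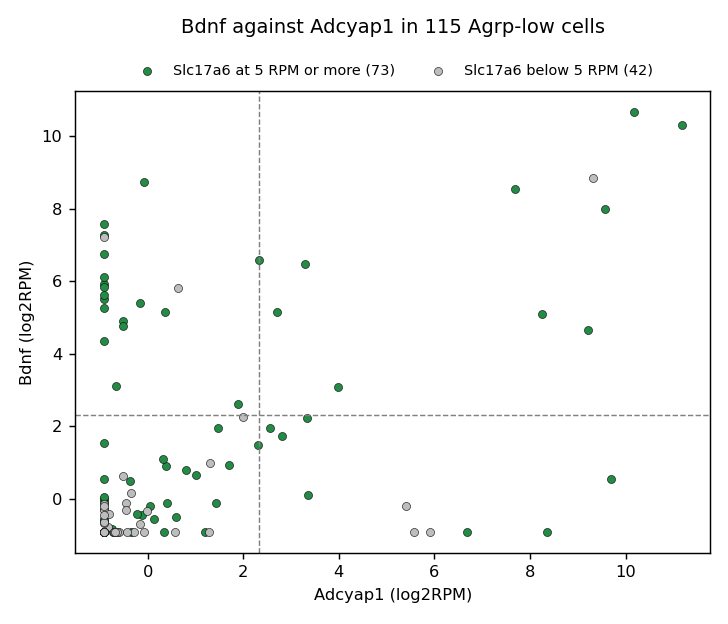
*Bdnf* against *Adcyap1* (both in log2RPM) in the Agrp-low cells, 1 point per cell, filled green where *Slc17a6* was at 5 RPM or more (73 cells) and grey where it was below (42 cells). Dashed lines are 5 RPM. The 11 cells in the upper right had both genes, and 27 of the 30 cells above the horizontal line had *Slc17a6*.

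The genes most like *Adcyap1* over Agrp-low cells were *Rgs8* (0.51), the spectrin *Sptb* (0.48), the dopamine receptor *Drd1* (0.47) and *Rnf144b* (0.46). *Drd1* was detected in 7 of 21 cells with *Adcyap1* and 6 of 94 without it. Those most like *Bdnf* were *Phf7* (0.46), the inositol transporter *Slc2a13* (0.45), *Wbscr17* (0.45) and the LIM homeobox gene *Lhx5* (0.44). *Slc2a13* was detected in 26 of 30 cells with *Bdnf* and 31 of 85 without it, and *Lhx5* in 14 and 7. *Sox14*, a transcription factor listed among markers of the ventromedial nucleus, was detected in 9 of 30 cells with *Bdnf* and 7 of 85 without it. Of the 16 Agrp-low cells with *Sox14*, 3 were among the 21 with *Adcyap1* and the others among the 94 without it. Its share was thus close in cells with and without *Adcyap1*. *Nptx2*, another listed marker of the nucleus, was detected in 41.2% of Pomc-high, 28.3% of Pomc-intermediate and 25% of Pomc-low cells. *Sox14* went the other way, at 8.82%, 11.3% and 25%. The defining markers of that nucleus, *Nr5a1* and *Fezf1*, were looked for and are not in the matrix. Every gene in the matrix is at 5 RPM or more in at least 7 cells, and no level of these 2 could be given.

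The promoters of *Adcyap1* and *Bdnf* are known to respond to cAMP and calcium through CREB, so the 250 bases before RefSeq transcript starts of the 5 genes were searched for the cAMP response element TGACGTCA and its shorter form TGACG, on both strands. The full element was in none of their windows and in 1.55% of 32851 windows of this length. The short form, which the full element contains, was in both overlapping windows of *Adcyap1*, in the window of *Trh*, in 1 of 7 of *Bdnf*, in neither of *Pdyn* and not in that of *Gal*, against 17.8% of all windows. The 2 windows are shown because these genes occurred together, with the short form, or its reverse complement, in capitals (RefSeq, GRCm38.p6, plus strand).
Adcyap1 (chr17:93198767-93199016): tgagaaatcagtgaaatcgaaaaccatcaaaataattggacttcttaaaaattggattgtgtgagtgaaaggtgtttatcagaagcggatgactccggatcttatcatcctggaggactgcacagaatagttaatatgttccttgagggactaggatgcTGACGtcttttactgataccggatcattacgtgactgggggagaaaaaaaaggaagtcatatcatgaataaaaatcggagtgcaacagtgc
Bdnf (chr2:109692186-109692435): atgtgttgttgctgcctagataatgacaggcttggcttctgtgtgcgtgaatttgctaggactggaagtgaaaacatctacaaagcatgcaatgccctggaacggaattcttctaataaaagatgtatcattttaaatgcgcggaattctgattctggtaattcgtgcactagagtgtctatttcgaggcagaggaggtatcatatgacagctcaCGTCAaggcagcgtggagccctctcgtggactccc

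Of all cells, 81.6% had at least 1 of the 5 genes (74.8% to 87.2%) and 69 cells had at least 2 (42.3%, 34.6% to 50.3%). By number, 30 cells had 0, 64 had 1, 48 had 2, 16 had 3, 4 had 4 and 1 had all 5. Agrp-low cells had 1.63 ± 1.00 of the genes (mean ± SD over cells) and Agrp-high cells 0.88 ± 0.84. At least 2 of the genes were found in 60 Agrp-low cells (52.2%, 42.7% to 61.6%) and 9 Agrp-high cells (18.8%, 8.95% to 32.6%). At least 1 was found in 30 of 34 Pomc-high, 49 of 53 Pomc-intermediate and 23 of 28 Pomc-low cells. Pomc-high cells had 2 or more in 21 of 34 cells, Pomc-intermediate cells in 29 of 53 and Pomc-low cells in 10 of 28.

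**Figure D4:**
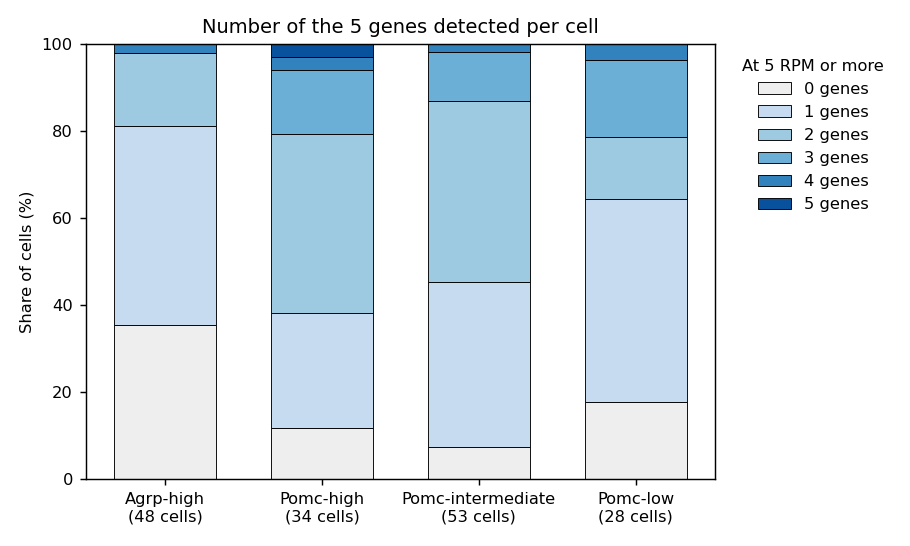
Share of cells (vertical axis, %) with 0 to 5 of the genes at 5 RPM or more, as stacked bars, for the 48 Agrp-high cells and the 3 *Pomc* groups of Agrp-low cells. The part with 2 or more genes is 18.8% in Agrp-high, 61.8% in Pomc-high, 54.7% in Pomc-intermediate and 35.7% in Pomc-low cells.

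The combinations differed in kind as well as in number, with 22 of 31 possible combinations seen. *Pdyn* alone was the most frequent (30 cells), followed by *Gal* with *Pdyn* (22 cells), *Gal* alone (16), *Adcyap1* alone (12) and *Pdyn* with *Bdnf* (8). Of the 12 cells with *Adcyap1* alone, 9 were Agrp-high, and the other 3 were Pomc-low. *Gal* and *Pdyn* were found together in 35 Agrp-low cells, which are 72.9% of the 48 with *Gal* and 44.3% of the 79 with *Pdyn*. *Pdyn* was detected in 44 of the 67 Agrp-low cells without *Gal* (65.7%), so its share over all Agrp-low cells was close with and without *Gal*. Within groups these shares were further apart, at 94.1% and 76.5% in Pomc-high and 62.5% and 82.8% in Pomc-intermediate cells. In Pomc-low cells they were 57.1% and 33.3%. The correlation of *Gal* and *Pdyn* was 0.24 over Agrp-low cells, and 0.50, 0.21 and 0.13 in the 3 ranges of cell number. *Pdyn* was less frequent in cells with *Adcyap1* (11 of 21, 52.4%) than without it (68 of 94, 72.3%), with a correlation of -0.23 that was 0.14 in cells from 99 on. It was detected in 20 of 30 cells with *Bdnf* (66.7%) and 59 of 85 without it (69.4%). In Agrp-high cells 3 of 6 cells with *Pdyn* had *Gal*.

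1 Pomc-high cell held all 5 genes, with *Gal* at 8.99, *Trh* at 7.74, *Bdnf* at 6.47, *Pdyn* at 5.97 and *Adcyap1* at 3.28 log2RPM. Its depth was 1.59 M reads, near the lowest of all cells, and it had 7434 genes at 5 RPM. Cells 26, 27, 47 and 73 had 4 of the genes each. In cell 27 *Gal* reached 10.69 and *Pdyn* 9.72 log2RPM, whereas the 4 genes of cell 26, an Agrp-high cell, lay between 2.73 and 4.55 log2RPM. Cells were sorted as singlets by the study and no doublet caller was run.

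Of 14 receptor genes for these ligands, 5 were in the matrix. *Ntrk2*, which encodes TrkB, was detected in 47 of 48 Agrp-high and in 94.1%, 94.3% and 92.9% of Pomc-high, Pomc-intermediate and Pomc-low cells, at Agrp-high and Agrp-low means of 6.71 and 6.77 log2RPM. *Adcyap1r1*, the PACAP receptor, was detected in 47 and 92 cells, and its means of 6.28 and 5.05 log2RPM differed by 1.23, the only receptor of the 5 that was higher in Agrp-high cells. *Sort1*, the sorting receptor of pro-BDNF, was detected in 19 and 51 cells. *Oprk1*, the kappa opioid receptor for dynorphin, was detected in 3 and 21 cells, with the largest share (32.1%) in Pomc-low cells. *Oprm1*, the mu opioid receptor, was detected in 13 and 17 cells. No receptor was lower by at least 1 in Agrp-high cells, and the median difference of the 5 was -0.06. Over all genes 8.65% were higher and 2.94% lower, with a median difference of 0.19. With 5 receptors these counts cannot be told apart from the shares over all genes. Among Agrp-low cells, *Ntrk2* was detected in all 30 with *Bdnf* and 78 of 85 without it, *Adcyap1r1* in 18 of 21 with *Adcyap1* and 74 of 94 without it, and *Oprk1* in 14 of 79 with *Pdyn* and 7 of 36 without it. These shares were 100% and 91.8%, 85.7% and 78.7%, and 17.7% and 19.4%.

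Of 17 genes that process and store peptides, 16 were detected in at least 20% of cells of some group. The carboxypeptidase *Cpe*, the granins *Chgb*, *Scg2* and *Scg3*, and the convertase partners *Scg5* and *Pcsk1n* were detected in every cell. Against Agrp-low cells, 1 gene was higher in Agrp-high cells, *Pcsk1n* (11.07 against 9.36 log2RPM), and 1 was lower, *Vgf* (1.45 against 4.07), where 8.65% of all genes were higher and 2.94% lower. *Pam*, the amidating enzyme that galanin, TRH and PACAP need, was detected in all 48 Agrp-high and 110 Agrp-low cells, and *Qpct*, which closes the glutamine at the start of TRH, in all Agrp-high cells and at least 89.3% of each *Pomc* group. In Pomc-high cells 5 of the 17 were higher than in other Agrp-low cells and 0 lower (4.50% and 5.10% of all genes), with a median difference of 0.67 against -0.03 over all genes.

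Of 12 other neuropeptide genes measured, 4 were higher in Agrp-high cells (*Npy*, *Sst*, *Nmb* and *Gast*) and 2 lower (*Tac2* and *Tac1*), beside 8.65% and 2.94% of all genes, with a median of 0.37 against 0.19 over all genes. *Npy* belongs to the AgRP cell type that the *Agrp* limit selects. *Sst*, the somatostatin precursor, stood at 4.42 in Agrp-high and 2.11 log2RPM in Agrp-low cells. Of 21 other growth factors, 18 were detected in at least 20% of some group, 2 were higher in Agrp-high cells and 1 lower, near the 8.65% and 2.94% of all genes. The higher ones were the intracellular *Fgf13* (7.01 against 5.10 log2RPM) and *Fgf1* (2.29 against 1.09), and the lower one was *Fgf9* (0.41 against 1.90). *Manf*, an endoplasmic reticulum stress factor, was detected in all cells but 1, against 35 cells with *Bdnf*. In Pomc-high cells 0 of the 21 were higher and 2 lower, beside 4.50% and 5.10% of all genes.

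Of 13 genes of activity and CREB signalling, 1 was higher in Agrp-high cells (*Jun*) and 5 were lower (8.65% and 2.94% of all genes), with a median of -0.73. In Pomc-high cells 6 were higher and 0 lower (4.50% and 5.10% of all genes), with a median of 0.75. These genes differed by cell number: *Fos* was detected in 15 of 34, 2 of 27 and 33 of 54 Agrp-low cells of the 3 ranges and *Nr4a1* in 3, 3 and 25. *Nr4a1* was detected in 44.1% of Pomc-high, 26.4% of Pomc-intermediate, 7.14% of Pomc-low and 4.17% of Agrp-high cells. In cells from 99 on, where most cells with *Nr4a1* lay, it was detected in 13 of 17 Pomc-high, 11 of 28 Pomc-intermediate and 1 of 9 Pomc-low cells. The shares with *Bdnf* there were 23.5%, 25% and 22.2%, and a relation between the 2 genes was not tested. *Fos* was detected in 14 of 30 Agrp-low cells with *Bdnf* and 36 of 85 without it. It was in 17 of 48 cells with *Gal* and 33 of 67 without it, a gap that came from cells 1 to 66 (4 of 15 against 11 of 19) and was not seen from cell 99 on (12 of 18 against 21 of 36).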

How the data were processed

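RNA was measured in 163 single MBH Pos cells, 1 SMART-Seq v4 library each. Per the submitters' processing notes and the study's methods, reads were demultiplexed with CASAVA 1.7, aligned to GRCm38 with TopHat2 2.0.11, counted with Cufflinks 2.2.1 and normalized with edgeR and limma. The study's methods also name a batch correction with these packages, but no label here names a batch. The log2 values deposited by the authors are log2RPM with a prior count over 12187 genes, each at 5 RPM or more in at least 7 cells, and were used as given. The lowest value is 0.532 RPM. The spacing of low values gave the worth of 1 read, and so the depth, in each cell. On that scale 99.3% of values from 1 to 20 reads were whole numbers within 0.1. Shifting values by batch would break this spacing, so the values used are taken as not corrected for batch.

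The 5 genes, the limits and all gene lists were chosen with earlier results of these data known. Cells were grouped by *Agrp* and *Pomc*, which are measured values, so the levels of these 2 genes are no result. Shares carry Clopper-Pearson 95% intervals and their differences Newcombe intervals. Likeness is the Pearson correlation over Agrp-low cells among genes detected in at least 10 of them. Text names the 5 genes, *Agrp*, *Pomc*, the 4 most alike genes per gene, measured receptors, and list members detected in at least 20% of cells of a group, up to 8 a list. The calculation of differences and of likeness was checked on simulated data, and no group difference was tested. Alternatives were cut-offs of 1 and 10 RPM or any value above the lowest, thinning to 3.85 M reads (17 shallower cells left out), *Agrp* limits of 9 and 11, 3 equal groups by *Pomc* rank, pseudocounts of 0.1 and 5 RPM, rescaling by 2711 genes found in 90% of cells, leaving out 3 cells, and ranges of cell number. No 2 cells held identical values. Gene lengths and repeat units come from GENCODE M21 (GRCm38) and promoters from RefSeq. Software was scipy 1.17.1, biopython 1.88, matplotlib 3.10.9, pandas 2.3.3 and numpy 2.4.6 under Python 3.11.15.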

Additional observations from a re-analysis of the deposited data

How the results depend on the processing

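Detection depends on the cut-off: 1 RPM moved 12 of 16 values (shares, gaps and the mean number of genes) by more than their interval or SD, and any value above the lowest 13 of 16. At 1 RPM the shares of Agrp-high and Agrp-low cells were 60.4% and 66.96% for *Gal*, 14.6% and 16.5% for *Trh*, 83.3% and 93.04% for *Pdyn*, 64.6% and 36.5% for *Adcyap1* and 37.5% and 43.5% for *Bdnf*. With any value above the lowest they were 87.5% and 93.9%, 27.1% and 29.6%, 97.9% and 97.4%, 79.2% and 59.1%, and 68.8% and 66.1% in the same order, and Agrp-low cells had 3.46 of the genes on average. The gap between Pomc-high and Pomc-low cells was then -19.7 percentage points for *Trh* and 18.5 for *Pdyn* at 1 RPM, and -2.31 for *Gal* and 10.7 for *Pdyn* with any value. At 10 RPM *Trh* was found in 0% of the 48 Agrp-high cells, which allows up to 6.25%. A pseudocount of 5 RPM brought the mean difference of Agrp-high and Agrp-low cells to -3.15 for *Pdyn*, 0.48 for *Adcyap1* and -0.81 for *Bdnf*. It was -0.91 for *Bdnf* with the *Agrp* limit at 11 log2RPM and 0.96 for *Adcyap1* without the 3 cells with markers of another cell type. The limit of 9, equal groups by *Pomc* rank, thinning, rescaling and the pseudocount of 0.1 RPM left all values recomputed under them inside their intervals and on the same side of 1. Among cells 1 to 66 the mean difference was -2.57 for *Pdyn*, -0.38 for *Adcyap1*, which turned its direction, and -1.95 for *Bdnf*. The shares of Agrp-low cells there were 50.0% for *Pdyn* and 38.2% for both *Adcyap1* and *Bdnf*, and the gap by *Pomc* was 53.6 points for *Gal* and 85.7 for *Pdyn*. Among cells 67 to 98 the mean differences were -2.57 for *Gal*, -1.01 for *Trh*, -6.82 for *Pdyn* and 3.55 for *Adcyap1*. The shares of Agrp-low cells were 55.6% for *Gal*, 81.5% for *Pdyn*, 11.1% for *Adcyap1* and 14.8% for *Bdnf*, those of the 5 Agrp-high cells were 60% for *Adcyap1* and 0% for *Trh*, *Pdyn* and *Bdnf*, which allows up to 60%, and the gap by *Pomc* was 46.7 points for *Gal* and -20.0 for *Trh*. Among cells from 99 on the mean difference was 0.0067 for *Adcyap1*, the share of Agrp-low cells with it 9.26% and that of the 11 Agrp-high cells 9.09%. *Trh* and *Bdnf* were at 0% of these 11 cells, which allows up to 27.3%, and the gap by *Pomc* was -3.92 points for *Gal*, 9.80 for *Pdyn* and 23.5 for *Adcyap1*. The cause was not tested. By rank correlation, 0, 0, 2, 1 and 1 of the 4 genes most like *Gal*, *Trh*, *Pdyn*, *Adcyap1* and *Bdnf* were again among the 4 highest, and over all cells 2, 3, 1, 2 and 2. The correlation of *Bdnf* with *Phf7* was 0.30 over all cells. Genes at 5 RPM in at least 10% of cells gave shares of higher and lower genes within 1.5 times those over all genes. Thinning to 1 depth moved 0 of 16 values by more than their interval or SD, and with 1 sample no value here has an error over animals.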

Other observations

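Among genes outside the lists, *Pea15a*, a small phosphoprotein, had the lowest correlation of all genes compared with both *Adcyap1* (-0.51) and *Bdnf* (-0.46) over the Agrp-low cells. It was chosen after its values were seen. It was present in every Agrp-low cell, at means of 9.06 log2RPM in the 21 cells with *Adcyap1* and 9.87 in the 94 without it, and of 9.19 in the 30 cells with *Bdnf* and 9.90 in the 85 without it. By rank the correlations were weaker, at -0.26 and -0.34. The lowest correlations with *Pdyn* were those of *Arpp21* (-0.44) and the contactin *Cntn5* (-0.44), which were detected in 8 and 13 of 79 cells with *Pdyn* and in 12 and 19 of 36 without it.

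In Agrp-high cells, *Th*, the rate-limiting enzyme of dopamine synthesis, was detected in 7 of 15 cells with *Gal* and 5 of 33 without it, at means of 2.61 and 0.83 log2RPM. In Agrp-low cells it was detected in 2 of 48 cells with *Gal* and 2 of 67 without it. Of the 15 Agrp-high cells with *Gal*, 11 were among cells 1 to 66. Of 7 listed markers of growth hormone-releasing hormone and dopamine neurons 4 were measured, without *Ghrh* and *Slc6a3*. Agrp-high minus Agrp-low, *Th* differed by 1.77, but *Ddc* by -1.01, *Slc18a2* by -1.34 and *Gal* by -1.32. *Cartpt* stood at 8.06 log2RPM in the 14 Agrp-high cells with *Adcyap1* and 6.87 in the 34 without it.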
